A study of Arabidopsis thaliana with 16 samples.

Results

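Sites that lose H2A.Z in *arp6-1* were located by setting H2A.Z ChIP-seq of wild type against H2A.Z ChIP-seq of *arp6-1*. A lost site is a place where wild-type DNA was called as enriched over *arp6-1* DNA, and the members are the summits of those enrichments in each of 2 replicates. Summits of the 2 replicates were taken as the same site when they lay within 200 bp of each other. The lists held 24579 summits in replicate 1 and 20184 in replicate 2, and 15734 common lost sites, out of 216620 summits in the 16 lists of the series. The plants were Columbia-0 shoots of 13 days after germination, grown in long days on MS medium with sucrose, and the groups described here differ by the *arp6-1* allele, a T-DNA mutation of *ARP6* (AT3G33520). Wild type and *arp6-1* each had 2 replicates, grown on separate plates, and the series also covers *mbd9-3* and the double mutant. Each replicate pooled the shoots of seedlings, so all shoot cell types are mixed, and was divided between H2A.Z and H3 immunoprecipitation. The H2A.Z antibodies were rabbit polyclonals against HTA11 and HTA9. The lists of lost sites and of wild-type sites over H3 share the wild-type H2A.Z libraries.

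H2A.Z is a histone variant that takes the place of H2A in some nucleosomes. The SWR1 complex exchanges H2A for H2A.Z, and ARP6, an actin-related protein, is a subunit that the complex needs for this exchange. In plants H2A.Z sits at the first nucleosomes after the start of most genes that carry it, and it extends over the bodies of genes that respond to the environment. Mutants of *ARP6* flower early.

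The deposited files give a position and a score for each summit and no reads, so sequencing depth and the size of the H2A.Z decrease are unknown. The score is the −log10 of the q-value of the enrichment, and it rises with both the size of the difference and the number of reads. A called loss is a decrease and need not be a full loss. A site absent from a lost list is a site where no difference was called, not a site with equal H2A.Z. The lost lists set H2A.Z against H2A.Z with no H3 term, and how the libraries were scaled to each other is not stated in the sources used here. The mutation itself cannot be checked, because summits do not measure *ARP6* RNA. With 2 replicates against 2, the smallest p-value of an exact permutation test is 0.333, so no test was made. Beside each share stands its 95% interval by the exact Clopper-Pearson method, where given, which covers only the error of counting sites, and the value of each replicate.

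The strongest losses lay in short windows inside coding sequence near gene starts. The centre and 100 bases to each side are shown for the 6 common lost sites with the highest scores because they had high scores in both replicates. Letters run 5′ to 3′ on the plus strand of TAIR10, read from the RefSeq TAIR10.1 assembly, and the capitals run from the summit of the first replicate to that of the second.
AT3G06436, chr3:1970492-1970692: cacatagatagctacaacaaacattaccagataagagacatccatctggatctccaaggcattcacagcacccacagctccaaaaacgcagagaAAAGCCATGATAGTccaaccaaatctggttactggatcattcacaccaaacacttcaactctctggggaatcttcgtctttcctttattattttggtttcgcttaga
AT5G16860, chr5:5544018-5544218: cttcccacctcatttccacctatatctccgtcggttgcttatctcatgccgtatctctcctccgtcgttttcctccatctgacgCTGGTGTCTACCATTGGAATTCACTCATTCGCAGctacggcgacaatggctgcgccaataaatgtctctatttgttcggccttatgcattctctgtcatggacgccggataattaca
AT5G58930, chr5:23795872-23796072: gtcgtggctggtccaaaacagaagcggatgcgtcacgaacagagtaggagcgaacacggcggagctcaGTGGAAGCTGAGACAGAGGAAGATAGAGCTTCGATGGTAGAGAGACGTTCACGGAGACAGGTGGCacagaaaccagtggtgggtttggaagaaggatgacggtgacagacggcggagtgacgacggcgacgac
TSB2 (AT4G27070), chr4:13586664-13586864: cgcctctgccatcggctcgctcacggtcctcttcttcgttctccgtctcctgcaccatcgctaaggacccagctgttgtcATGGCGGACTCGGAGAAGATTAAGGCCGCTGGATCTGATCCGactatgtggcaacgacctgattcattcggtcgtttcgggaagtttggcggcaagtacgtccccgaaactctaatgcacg
AT1G44990, chr1:17007609-17007809: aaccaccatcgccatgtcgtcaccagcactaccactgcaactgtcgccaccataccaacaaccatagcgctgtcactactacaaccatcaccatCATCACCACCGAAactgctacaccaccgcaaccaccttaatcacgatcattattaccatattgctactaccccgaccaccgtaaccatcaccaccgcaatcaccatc
AT3G17830, chr3:6101918-6102118: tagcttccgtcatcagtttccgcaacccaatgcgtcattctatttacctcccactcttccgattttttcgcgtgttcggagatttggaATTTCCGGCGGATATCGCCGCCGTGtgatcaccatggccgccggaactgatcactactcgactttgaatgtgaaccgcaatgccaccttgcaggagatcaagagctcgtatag
The capitals span 14 bases in the first of these and 13 to 65 bases over the 6 windows. The first window belongs to both AT3G06435 and AT3G06436, which overlap and encode uncharacterized proteins, and its loss scores were 28.09 in replicate 1 and 44.63 in replicate 2. It was the highest score of either list. AT5G16860, annotated as a tetratricopeptide repeat-like protein, scored 24.01 and 23.57. AT5G58930, a protein of unknown function, scored 22.63 and 21.48. In *TSB2*, a beta subunit of tryptophan synthase that makes the last step of tryptophan synthesis, the scores were 21.02 and 23.44. AT1G44990 scored 20.82 and 22.09, and AT3G17830, a DnaJ-type chaperone, scored 25.33 and 20.64. All 6 had a common wild-type H2A.Z summit within 200 bp and no summit in either *arp6-1* replicate. Their GC content was 41.8% to 57.2%.

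For contrast, the strongest wild-type sites that had a summit in both *arp6-1* replicates and no lost summit in either replicate are shown in the same way, with capitals between the wild-type summits.
DRD1 (AT2G16390), chr2:7097729-7097929: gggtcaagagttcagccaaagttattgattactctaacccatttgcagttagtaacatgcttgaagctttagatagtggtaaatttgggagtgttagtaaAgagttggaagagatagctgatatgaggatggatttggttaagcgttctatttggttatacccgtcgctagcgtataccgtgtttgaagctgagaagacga
AT3G57200, chr3:21169425-21169625: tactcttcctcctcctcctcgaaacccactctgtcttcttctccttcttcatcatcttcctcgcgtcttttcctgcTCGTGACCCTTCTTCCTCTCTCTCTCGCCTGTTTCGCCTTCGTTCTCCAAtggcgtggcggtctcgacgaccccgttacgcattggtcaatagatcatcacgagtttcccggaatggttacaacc
*DRD1*, an SNF2 protein of the RNA-directed DNA methylation pathway, had wild-type scores over H3 of 49.24 and 66.90 and *arp6-1* scores of 86.58 and 77.83. Both wild-type summits fell on the same base. AT3G57200, a glycosyltransferase-like protein, had wild-type scores of 26.49 and 26.58 and *arp6-1* scores of 26.53 and 14.20. Such kept sites were few, 710 of 21919 common wild-type sites (3.24%, interval 3.01 to 3.48). Other kept sites of high score were at *DL1D* and *DL1B*, which encode dynamin-like proteins of membrane fission, and at AT3G48210, a kinetochore protein whose scores were 19.93 and 19.73 in wild type and 32.27 and 43.37 in *arp6-1*.

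The replicates called largely overlapping places with weakly related scores. A partner in replicate 2 within 200 bp was found for 63.7% of the replicate 1 summits, and a partner in replicate 1 for 77.5% of the replicate 2 summits. Among summits of score 10 or more these shares were 92.1% and 95%, and among summits of score under 3 they were 41.7% and 62.6%. The median distance of a matched summit of replicate 1 to replicate 2 was 40 bp. In the last 20 bp inside the 200 bp limit there were 301 summits of replicate 1, and in the first 20 bp outside it 248, against 4481 within 20 bp of a replicate 2 summit. Across the 15734 common lost sites, which share their libraries and are not independent, the scores had a Pearson r of 0.41 and a Spearman rho of 0.36. The median score was 6.29 in replicate 1 and 5.66 in replicate 2, and 43.2% of sites scored higher in replicate 2. The lower of the 2 scores, used to rank sites, had a median of 4.72 (quartiles 3.51 to 6.48). The plot of scores in both replicates shows this spread.

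**Figure D1:**
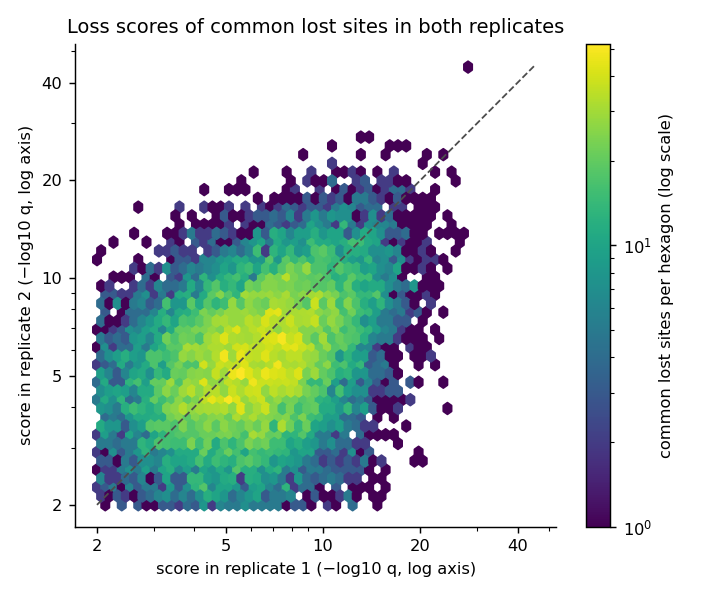
Scores (−log10 q) of the 15734 common lost sites in replicate 1 (horizontal) and replicate 2 (vertical), both on log axes, with the number of sites per hexagon in colour and a dashed line where the scores are equal. Sites scatter widely on both sides of the line (Pearson r of 0.41 on the plain scale), and 1 site, at AT3G06435 and AT3G06436, stands at 28.09 and 44.63.

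Most lost sites lay where wild type had H2A.Z. Of the 15734 common lost sites, 79.5% had a common wild-type summit within 200 bp (H2A.Z over H3), 89.4% had one in replicate 1 and 83.1% in replicate 2, and 6.68% had none in either. In *arp6-1*, 9.16% had an H2A.Z summit over H3 in replicate 1 and 17.5% in replicate 2, and 80.3% had none in either. The *arp6-1* lists over H3 were themselves unequal, with 3827 and 7506 summits, against 29980 and 26536 in wild type. Fewer of the stronger losses had an *arp6-1* summit, and the *arp6-1* H2A.Z libraries stand in both kinds of list. Of the 824 sites with a lower score of 10 or more, 4.98% had an *arp6-1* summit in replicate 1 and 9.83% in replicate 2, against 10.9% and 19.6% of the 2273 sites with a lower score under 3.

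Seen from the wild type, the common wild-type sites were lost in 12388 of 21919 cases, a background share of 56.5% (interval 55.9 to 57.2), and a lost summit was near 75.7% of them in replicate 1 and 63.5% in replicate 2. No lost summit lay near 17.0% of them in either replicate. Of the lost wild-type sites, 1085 still had a common *arp6-1* summit and 11303 did not. A further 7999 wild-type sites had neither a common lost site nor a common *arp6-1* summit, so absence of an *arp6-1* summit was more frequent than a called loss. The share lost was higher at higher wild-type scores, with 36.8% in the lowest quintile of sites (lower score of 2 to 3.46) and 72.9% in the highest (8.47 and above). In replicate 1 these shares were 58.9% and 89.1%, and in replicate 2 they were 46.6% and 75.8%. The same wild-type libraries stand in both kinds of list, so the score and the call of loss are not independent. The highest quintile also held the most remaining *arp6-1* summits, 37.6% against 1.48% in the lowest.

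Loss was concentrated just after gene starts. The 5′ end, taken as the first 500 bp of a protein-coding gene, held 8717 of the 15734 common lost sites (55.4%, interval 54.6 to 56.2), while this class makes up 10.8% of the bases of the 5 chromosomes. The rest of the gene body held 27.3%, the last 500 bp held 9.81% and intergenic sequence held 7.53%. Among common wild-type sites the same classes held 47.5%, 31.0%, 11.7% and 9.78%. The shares depend on the window, and with one of 300 bp the 5′ end held 24.5% and the gene body 64.8%. In the single replicates of the loss the 5′ end held 49.8% and 51.5%, between the values of the common lost and the wild-type sites. The 50 bp bin with the most common lost sites was 250 to 300 bp after the nearest start, with 10.7% of them, and wild-type sites had their maximum in the same bin, with 8.85%. In the 50 bp just before starts there were 33 common lost sites. The profile of sites around gene starts shows lost, wild-type and kept sites at nearly the same place.

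**Figure D2:**
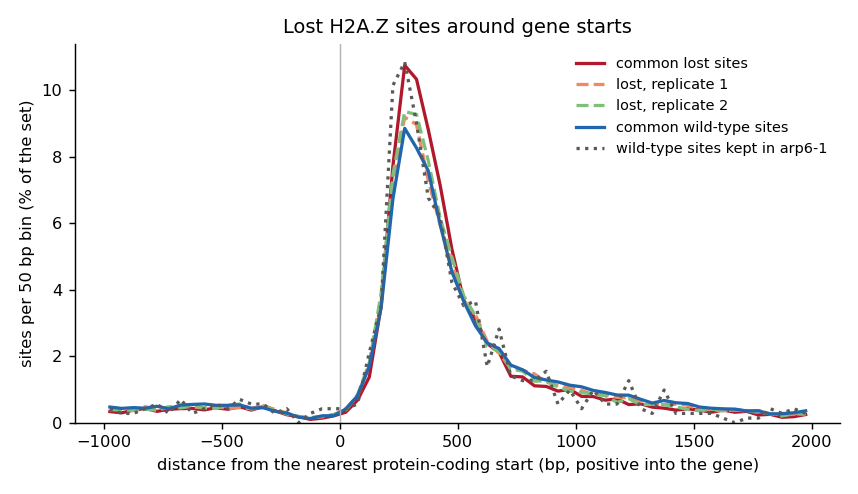
Distance of site centres from the nearest protein-coding gene start (horizontal, bp, positive into the gene) against the percentage of each set per 50 bp bin, for common lost sites, the lost sites of each replicate, common wild-type sites and the 710 wild-type sites kept in *arp6-1*. The sets rise after the start and peak 250 to 300 bp into the gene, where the common lost sites reach 10.7%.

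Wild-type sites at 5′ ends were lost more often than those elsewhere. A common lost site lay near 64.3% of wild-type sites at 5′ ends (interval 63.4 to 65.3), 51.1% in gene bodies, 49.3% at 3′ ends and 44.4% between genes. The order was the same in replicate 1 (81.0%, 72.5%, 70.2% and 66.4%) and in replicate 2 (70.6%, 58.0%, 57.5% and 53.9%). The difference between 5′ ends and gene bodies was larger among weak wild-type sites. In the lowest quintile of wild-type scores, 50.9% of 5′ sites (interval 48.4 to 53.5) and 30.4% of gene body sites (28.2 to 32.7) were lost, while in the highest quintile the shares were 73.2% and 74.0% with overlapping intervals. Strong losses were also more often at 5′ ends, with 72.3% of sites of lower score 10 or more (interval 69.1 to 75.4) against 44.1% of those under 3 (42.1 to 46.2). Strong wild-type sites, from the same wild-type libraries, were too. In the highest quintile of wild-type scores 2618 of 4382 sites were at 5′ ends, against 1535 of 4384 in the lowest.

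**Figure D3:**
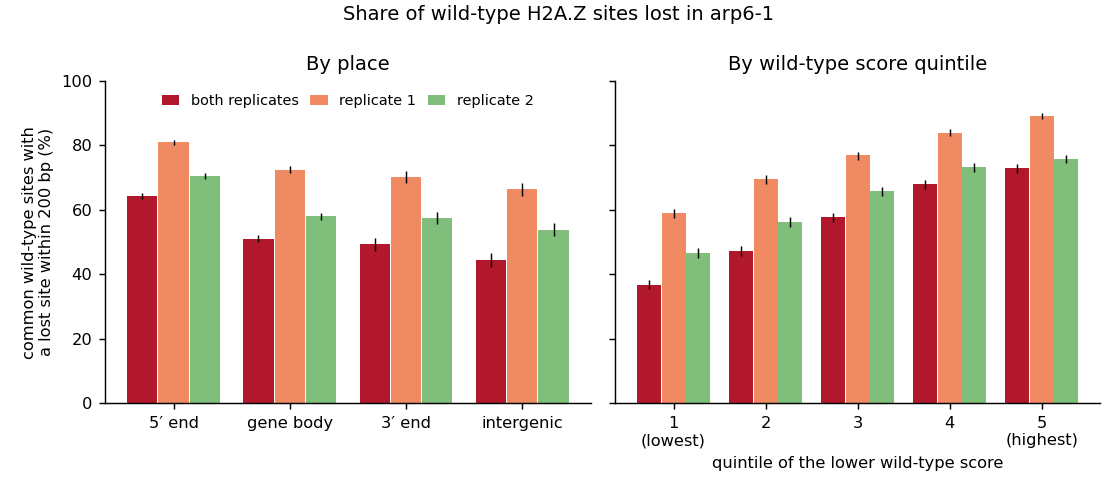
Percentage of the 21919 common wild-type H2A.Z sites with a lost site within 200 bp, by place (left) and by quintile of the wild-type score (right), as bars for both replicates together and for each alone, with 95% exact intervals as lines. Sites at 5′ ends were lost most often in each replicate, and the share for both replicates together was 36.8% in the lowest and 72.9% in the highest quintile.

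Within genes, coding exons held most of the loss. Of 14549 common lost sites centred in a protein-coding gene, 84.7% lay in coding exons, 6.43% in UTR exons and 8.89% in introns, while these parts make up 52.2%, 19.7% and 28.1% of gene bases. Wild-type sites were spread in almost the same way (84.0%, 6.47% and 9.51%), and kept sites had 79.1% in coding exons (interval 75.7 to 82.2) and 13.5% in introns (11.0 to 16.5). In the printed windows the capitals of *TSB2* and AT5G16860 are such coding sequence.

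A common lost site was called in 11753 of 27444 protein-coding genes, a background of 42.8%, and replicate 1 alone called 57.9% and replicate 2 alone 50.1%. Of the called genes, 81.9% also had a common wild-type site. Of the 13958 genes that had a common wild-type site, 69.0% had a common lost site, 55.0% had lost every wild-type site and 8.65% had no lost summit in either replicate. A single lost site was the usual pattern, in 80.3% of called genes, while 566 genes (4.82%) had 3 or more. The share called was higher in longer genes, with 12.2% of genes under 500 bp and 53.9% of genes of 5 kb or more (18.3% and 67.2% in replicate 1, and 16.9% and 61.1% in replicate 2). Where a common wild-type site was present these shares were 56.5% (interval 49.9 to 62.9) and 78.2% (75 to 81.1). Genes with several wild-type sites seldom lost all of them. All sites were lost in 66.3% of genes with 1 wild-type site, 34.8% of genes with 2, 20.8% of genes with 3 and 11.8% of genes with 4 or more. At least 1 common lost site was called in 67.4%, 69.7%, 75.8% and 84.1% of them. A larger number of sites in a gene moves both shares in these directions. The share of single sites lost was not compared between these groups of genes, so how often each site was lost in them was not tested.

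The genes with the strongest loss had varied functions. After the 6 sites shown above, the ranking continued with *ANX1*, a receptor-like kinase that keeps pollen tubes from bursting (25.93 and 20.29), and its site lay 3183 bp after the start. AT1G03540, a pentatricopeptide repeat protein, scored 18.62 and 19.49, and *EMB3111*, a tetratricopeptide repeat-like protein with 3 common lost sites, scored 18.49 and 18.99. *nMAT1*, a maturase that splices introns in mitochondria, scored 18.22 and 20.21. Of the 20 genes with the highest scores, the others were AT3G27180, AT3G08840, AT5G07140, the overlapping genes AT1G34315 and AT1G34317, which share a site centred just outside both, AT1G14230, AT3G14480, AT5G01720 and AT4G31360, with lower scores between 17.35 and 18.23. None of the 20 had an *arp6-1* summit in either replicate, and all had a common wild-type site, with wild-type scores from 4.70 to 22.14 over the 2 replicates. A high loss score could go with a low wild-type score over H3, as in AT3G08840, a D-alanine ligase family gene, which scored 11.22 and 4.70 in wild type and 18.02 and 18.10 in the loss.

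Few genes had many lost sites, and those sites ranged from weak to strong. The best lower scores of the 8 genes with the most lost sites were 4.07 to 10.54. AT4G38780, annotated as a pre-mRNA splicing factor, had 10 common lost sites over 9787 bp, from 163 to 6227 bp after its start. Its best site scored 9.54 and 8.17 and its weakest 2.38 and 3.51. AT1G04470, of unknown function, had 7 lost sites from 493 to 3179 bp after the start, with scores up to 13.15 in replicate 1 and 12.60 in replicate 2, and *ABCB12*, an ABC transporter of the P-glycoprotein type, had 7 from 169 to 4660 bp. *CPL5*, a phosphatase of the RNA polymerase II tail, *MEE27*, a jumonji family gene, the F-box gene AT3G22700 and AT1G29830, a CorA-like magnesium transporter, each had 6, and the F-box/RNI gene AT5G60610 had 5, the best at 11.42 and 10.54. In this group *arp6-1* summits were present in both replicates only in AT4G38780 (3.57 and 3.02). A wide stretch of loss in one replicate can be divided by gaps in the other, so the number of sites in a gene is partly a matter of how summits fall. Of all common lost sites 6.76% were overlaps under 50 bp long, among them some of those counted in AT4G38780, *ABCB12* and *CPL5*. Neighbouring lost sites in the same gene had a median distance of 381 bp (quartiles 143 and 822).

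The floral repressors, which hold back flowering, were divided. *FLC*, the main repressor of the vernalization pathway, had a strong wild-type summit (29.64 and 18.12), a summit in *arp6-1* (15.98 and 15.15) and a lost summit in replicate 1 alone (4.88), so it was not a common lost site. *MAF4* and *MAF5*, its relatives in a tandem cluster, were both called, each with 3 common wild-type sites. *MAF4* had 1 common lost site and an *arp6-1* summit in replicate 2 alone (3.21), and *MAF5* had 2 common lost sites. *MAF4* scored 9.51 and 7.42 for a site 245 bp after its start, and *MAF5* scored 7.85 and 10.02 at 290 bp and 7.02 and 6.44 at 4698 bp. *MAF2* (given as *AGL31*), *MAF3*, *MAF1* (also called *FLM*) and *SVP* had no wild-type and no lost summit in either replicate. *SOC1* (given as *AGL20*) had a lost summit in replicate 2 alone (3.60), and *FT*, the mobile flowering signal, had a wild-type summit in replicate 1 alone (3.82) and no lost one. *FRI*, which encodes an activator of *FLC*, was called (6.76 and 4.43) but had no wild-type summit over H3 in either replicate. *TSF* and *FD* had lost summits in each replicate that did not meet within 200 bp. *CO* had a weak common wild-type site (2.70 and 2.72) and no lost summit. Over the 14 genes of this list, 3 were called (21.4%, interval 4.66 to 50.8), with 7 in replicate 1 and 6 in replicate 2, and the interval holds the background of 42.8%.

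Genes of the exchange machinery itself were called at a share near the background, 5 of 10 (50%, interval 18.7 to 81.3) against 42.8% of all genes. In replicate 2 alone the shares were 50% and 50.1%. *MBD9*, a chromatin reader that works with SWR1, scored 9.01 and 12.91, and *PIE1*, the ATPase of the complex, scored 5.94 and 7.19. *ARP4* (5.36 and 11.18), AT5G67630, a RuvB-like helicase (6.28 and 13.85), and AT2G47210, an MYB-like SWR1 subunit (5.10 and 5.69), were called as well. *ARP6* (6.82), *SWC2* (2.73) and *SEF* (5.14) had a lost summit in replicate 1 alone, and *RIN1* and *GAS41* had none. Of these 10 genes 2 had a common wild-type site, and *PIE1* had no wild-type summit in either replicate. Of the 4 H2A.Z genes 2 were called. These were *HTA9* (6.43 and 6.12) and *HTA11* (4.75 and 9.16), and *HTA11* also had *arp6-1* summits in both replicates (5.18 and 7.57). *HTA8* had a lost summit in replicate 1 alone (3.02) and *arp6-1* summits of 11.04 and 13.92, and *HTA4* had none of any kind.

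Salicylic acid defence genes were called in 11 of 14 cases (78.6%, interval 49.2 to 95.3), against 42.8% of all genes. In replicate 1 the shares were 85.7% against 57.9%, and in replicate 2 they were 78.6% against 50.1%. A common wild-type site was present in 92.9% of the list, and of those members 76.9% were called, against 69.0% of all genes with such a site. *PR1*, a marker of this defence, scored 12.51 and 10.58, and *BGL2*, a glucanase also known as PR2, scored 7.17 and 15.67. *EDS16*, which encodes the isochorismate synthase that makes salicylic acid, *NPR1*, its receptor, *EDS1* and *PAD4* were called too. *EDS5*, the transporter that exports the precursor from the chloroplast, had wild-type scores of 15.69 and 18.43, *arp6-1* scores of 13.76 and 18.58 and no lost summit. *WRKY70* also had no lost summit, with wild-type scores of 14.22 and 6.34. With scores of 5 or more required, 4 of the 14 genes were called, a share of 28.6% against 22.8% of all genes.

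The clock, phosphate and cold lists held 11, 8 and 11 genes, too few for narrow intervals. The shares called were 54.5% (interval 23.4 to 83.3), 62.5% (24.5 to 91.5) and 54.5% (23.4 to 83.3), and all 3 intervals hold the 42.8% of all genes. Among members with a common wild-type site they were 57.1%, 71.4% and 60.0%, against 69.0%. Of the clock genes 6 were called, with *PCL1*, a member of the evening complex, at 7.17 and 15.94, *PRR3* at 10.33 and 8.73 and *PRR5* at 6.78 and 10.31. *PRR7*, *PRR9* and *ELF3* were called at lower scores, *CCA1* and *LHY*, the morning factors, had no wild-type and no lost summit, and *ELF4* had *arp6-1* summits of 8.04 and 20.50. Of the phosphate starvation genes 5 were called, among them *SQD2*, a sulfolipid synthase (15.23 and 8.22), and *MGDC*, a galactolipid synthase (8.33 and 11.87). Of the cold and drought genes 6 were called. The tandem genes *CBF1* (7.52 and 5.14), *CBF2* (4.91 and 5.46) and *CBF3* (given as *DREB1A*, 9.42 and 4.93), which activate the cold response, were all called. However, *CBF2* and *CBF3* kept *arp6-1* summits in both replicates, and *CBF1* had a summit in replicate 2 alone (7.49). *COR15A*, *COR15B* and *COR47* had common wild-type sites and no lost summit, and *KIN1* had a lost summit in replicate 1 alone (3.25). *RD22* (15.23 and 9.59), *LTI65* and *LTI78* were called. Of these, *RD22* (3.28 and 14.35) and *LTI78* (2.03 and 6.36) had *arp6-1* summits in both replicates, and *LTI65* in replicate 2 alone (8.48).

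Gene families with many members differed widely in the share called. Pentatricopeptide repeat proteins, which process RNA in organelles, were called in 178 of 279 cases (63.8%, interval 57.9 to 69.4), and kinesins and tubulins, the motors and subunits of microtubules, in 40 of 59 (67.8%, interval 54.4 to 79.4). Both lay above the background of 42.8%. In replicate 1 they had 74.6% and 76.3%, against 57.9% of all genes, and in replicate 2 they had 68.5% and 72.9%, against 50.1%. AP2/ERF factors, which include many stress regulators, had 63.2% of 144 called, and receptor-like kinases had 56.1% of 301. Cyclins and CDKs, which drive the cell cycle, had 57.6% of 99 called, UDP-glycosyltransferases 53.9% of 128 and F-box proteins, which select targets for degradation, 48.5% of 653. Proteasome subunits (53.8% of 39), WRKY factors (51.4% of 72), cytochrome P450 proteins (49.2% of 248), core histones (46.8% of 47), peroxidases (44.6%, 45 genes), NBS-LRR immune receptors (40.9% of 159), seed storage, LEA and oleosin genes (39.7% of 267) and heat shock proteins (38.4% of 211) had intervals that hold the background.

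Genes of the ribosome, the photosystems and small cysteine-rich peptides were seldom called. Defensins and cysteine-rich peptides had 11 of 242 called (4.55%, interval 2.29 to 7.99), and photosystem and light harvesting proteins, which capture light in the chloroplast, had 6 of 68 (8.82%, interval 3.31 to 18.2). Ribosomal proteins, which include mitochondrial and plastid ones, had 59 of 343 (17.2%, interval 13.4 to 21.6), and translation factors had 18 of 80 (22.5%, interval 13.9 to 33.2). These lists also had few members with a common wild-type site, 9.92%, 11.8%, 16.9% and 18.8% in the same order. Of the members that had one, 37.5% of defensins, 37.5% of photosystem genes, 72.4% of ribosomal genes and 60.0% of translation factors were called, against 69.0% of all such genes. MYB factors (35.0% of 180, interval 28.1 to 42.4) and SAUR proteins (30.8% of 78, 20.8 to 42.2) lay below the background, and MADS-box factors (34.2% of 120, 25.8 to 43.4) had an interval that holds it.

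Restricting each list to members with a common wild-type site moved several lists across the background, some by little or on few genes. Pentatricopeptide proteins stayed high, at 87.0% of 161, as did kinesins and tubulins, at 82.9% of 41, and proteasome subunits, at 85.7% of 14. AP2/ERF factors (72.6% of 117), receptor-like kinases (73.1% of 208) and cyclins and CDKs (73.2% of 71) stayed above 69.0% by less. A common wild-type site was present in 81.2%, 69.1% and 71.7% of their members, in the same order. WRKY factors, of which 81.9% had a common wild-type site, lay on the other side of the background, with 62.7% of 59 called against 69.0%, and peroxidases did the same at 58.2% of 67. So did the F-box (67.5% of 403), UDP-glycosyltransferase (68.9% of 90) and cytochrome P450 (67.1% of 170) lists, all close to 69.0%. The clock (4 of 7), cold and drought (6 of 10) and H2A.Z gene (1 of 2) lists did so on few genes. NBS-LRR receptors (73.0% of 74) and ribosomal proteins (72.4% of 58) came to lie slightly above it. Over all genes, 18 of the 29 lists lay above the background, 16 of them in both replicates as well, and 11 lay below it in both replicates. With a common wild-type site required, 12 lists lay above. The lists were compared with all genes as a description, and gene length, which moves with the share called (above), differs between them, from a median of 526 bp for defensins to 4227 bp for NBS-LRR receptors. Its part in these shares was not tested.

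**Figure D4:**
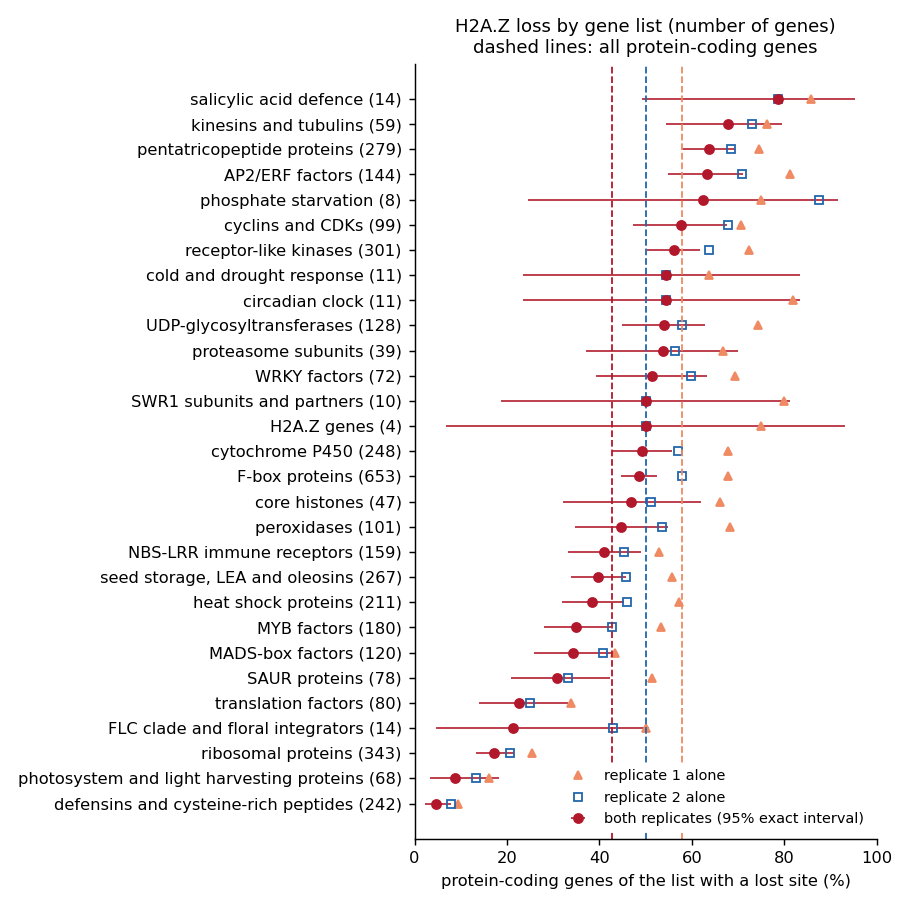
Percentage of the protein-coding genes of 29 lists (number of genes in brackets) with a common lost site (circles, with 95% exact intervals), and with a lost site in replicate 1 (triangles) or replicate 2 (squares) alone. Dashed lines give the same shares over all 27444 protein-coding genes, 42.8%, 57.9% and 50.1%, and the lists run from 4.55% for defensins to 78.6% for salicylic acid defence.

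Strong examples within the families show where the loss lay. *TUB7*, a beta tubulin, scored 16.87 and 17.45 at 358 bp after its start, and *TUA5*, an alpha tubulin, scored 14.74 and 13.63 at 223 bp. *DDF1*, an AP2/ERF factor related to the CBF factors, scored 16.40 and 20.80 at 378 bp. In contrast, *MRH2*, a kinesin of root hairs, had *arp6-1* summits of 32.94 and 29.55 with no lost summit, against 15.56 and 26.54 in wild type. *CYC3B*, a mitotic-like cyclin, also had no lost summit, with 11.56 and 22.49 in wild type and 19.48 and 33.61 in *arp6-1*, while *CDKB2;1*, a mitotic kinase, was called at 14.08 and 13.08. *WRKY67* had 4 common lost sites in 1159 bp, the best at 10.87 and 12.03, 151 bp after its start. *CYP94D1* (25.66 and 13.46), *AGL54* (9.03 and 11.41), *MYB77* (11.06 and 16.91) and *RLK902* (14.26 and 14.32) led or stood next to the lead of their families.

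Along the chromosomes, loss followed the genes. Common lost sites numbered 4108, 2300, 3222, 2347 and 3757 on chromosomes 1 to 5, or 135, 117, 137, 126 and 139 per Mb. The share of wild-type sites lost was 55.4% to 57.8% over the 5 chromosomes, and the share of genes called was 40% on chromosome 2 and 42.5% to 44.2% on the others. In the 37 of 240 bins of 500 kb with fewer than 0.5 of their chromosome's median number of protein-coding genes, taken as pericentromeric, there were 436 common lost sites (2.77%, interval 2.52 to 3.04), or 23.6 per Mb against 152 elsewhere. With a gene density limit of 0.25 or 0.75 in place of 0.5 the share of lost sites was 0.737% or 6.64%. Replicate 1 had 2.86% and replicate 2 had 2.84% of its summits there, and wild-type sites had 2.63%. Of the wild-type sites in those bins 56.2% were lost (interval 52.1 to 60.3), against 56.5% elsewhere, with 77.8% against 75.6% in replicate 1 and 62.0% against 63.6% in replicate 2. Fewer of the genes there were called, 21.2% of 1013 against 43.7% of 26431. In these bins 39.4% of lost sites lay outside protein-coding genes, against 6.62% elsewhere.

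**Figure D5:**
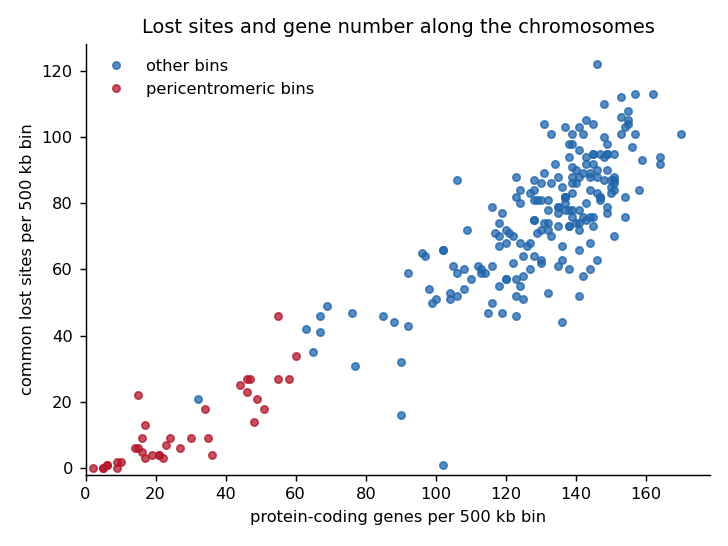
Number of protein-coding genes (horizontal) and of common lost sites (vertical) in each of 240 bins of 500 kb, with the 37 pericentromeric bins in red. Lost sites increase with gene number, and 1 bin with 102 genes has 1 lost site.

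Single regions stood out in both directions. The bin with the most lost sites, 122, was chr5:25500001-26000000, which ends within *MAF5*, and 70.9% of its wild-type sites were lost. The bin chr2:3000001-3500000 held 102 genes but only 1 common lost site and no common wild-type site. It lies in the stretch of chromosome 2 known to carry inserted mitochondrial DNA, whose part in this was not tested, and within it falls most of the longest run of genes without a common lost site, 100 genes from AT2G07440 to *ABCC13* (chr2:3093821-3522658). The longest run of called genes was 15 neighbours, from AT1G02965 to *MCCA*, a subunit of methylcrotonoyl-CoA carboxylase (chr1:671661-744184). Among bins with at least 20 wild-type sites, the share lost ranged from 37.7% to 71.2% outside and from 34.8% to 95% inside pericentromeric bins, the highest being 19 of 20 sites in chr3:12500001-13000000.

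The DNA at lost sites was richer in G and C than its surroundings. The centre of common lost sites with 100 bp to each side had a median GC content of 45.8% (quartiles 41.8 to 49.8), against 36.0% over the 5 chromosomes. Windows of the same length centred midway between 250 and 300 bp after the start, taken in all genes long enough to hold one, had a median of 40.8%, and those of such genes with no lost summit had 38.3%. Along the chromosome, mean GC content at the lost sites was 46.8% at 20 to 40 bp left of the centre and 37.2% at 280 to 300 bp left of it. Common wild-type sites had a median of 44.8% and kept sites 44.3%, close to the lost sites of single replicates (44.8% in each). Among lost sites the median was 43.8% for lower scores under 3 and 50.2% for 10 or more. The part of GC content in the calls was not tested.

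Short motifs differed in share between lost and wild-type sites by small amounts. Of the common lost sites, 79.5% had a common wild-type summit within 200 bp, so these 2 sets overlap. Their intervals do not measure the error of a difference between them. The telobox core AAACCCTA, counted on both strands, was in 4.24% of windows of common lost sites (interval 3.93 to 4.57), 3.40% of common wild-type sites (3.17 to 3.65) and 3.10% of kept sites (1.95 to 4.65). The lost sites of replicates 1 and 2 held it in 4.18% and 4.26%. The windows after all gene starts held it in 7.36%, and the common lost sites at 5′ ends in 5.83%. The G-box CACGTG was in 3.70% of lost sites and 3.78% of wild-type sites, and GAGAGA was in 31.0% (interval 30.3 to 31.7) and 29.0% (28.4 to 29.7). In the lost sites of replicates 1 and 2 the G-box was in 3.44% and 3.41%. GAGAGA was in 29.6% (29.0 to 30.2) and 30.6% (29.9 to 31.2) of them. The TATA box core TATAAA was in 6.72% of lost sites (interval 6.33 to 7.12) and 7.95% of wild-type sites (7.60 to 8.32). Lost sites of replicates 1 and 2 held it in 7.57% (7.23 to 7.91) and 7.67% (7.30 to 8.05), and both intervals overlap that of wild-type sites. The CTT repeat CTTCTTCTT was in 6.43% of lost sites (interval 6.05 to 6.82) and 10.1% of kept sites (8.02 to 12.6), 72 of 710. It was in 6.27% and 6.78% of the lost sites of replicates 1 and 2. Runs of AAAAAAAA were in 1.57% of lost sites and 10.3% of the windows after gene starts. These matches describe the letters of the windows and are not binding sites.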

How the data were processed

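H2A.Z ChIP-seq of wild type and *arp6-1* shoots was used, 2 replicates each, with their H3 libraries. Reads were aligned by the authors to TAIR10 with Bowtie. Only unique reads without duplicates (SAMtools) were used, and MACS2 2.1.1 was run on each replicate with a q-value limit of 0.01. The deposited summit lists give a position and a score, the −log10 of the q-value, so depth per library is unknown and precision is limited by the number of sites. Edges and coverage of peaks were not used here. The lists of H2A.Z over H3 in wild type and *arp6-1* were read in the same way. Sites in repeated sequence can be missed, since unique reads were used.

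From these lists, summits were extended by 100 bp to each side, touching ones were merged and stretches of both replicates that overlapped by at least 1 bp gave the common sites. The score of a site is the highest summit score of each replicate and sites were ranked by the lower. All summits lay within the RefSeq TAIR10.1 chromosomes, whose annotation gave 27444 protein-coding genes, and a gene was called when a common site covered at least 1 bp of it. Site centres within 500 bp of a gene's nearer end were put in its 5′ or 3′ class, the 5′ end had precedence in overlapping genes, and 227 common lost sites touched more than 1 gene. Gene lists were locus lists or words in product names. Named genes were those of the flowering, H2A.Z and SWR1 lists, the 20 genes of highest lower score, the 8 with most lost sites, and up to 2 called members and 2 members with a wild-type site and no lost summit per list. Other members of the short lists and the kept sites were named after their values were seen. The members and lists were chosen with earlier results of these data known. Python 3.11.15, pandas 2.3.3, numpy 2.4.6 and scipy 1.17.1 were used. The joining of summits was checked on simulated lists whose sites lay far apart, so the merging and splitting of close sites was not checked. Other joining distances, scores, windows, limits and single replicates were tried as alternatives.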

Additional observations from a re-analysis of the deposited data

How the results depend on the processing

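No paired analysis was possible because each deposited list already pairs a wild-type with an *arp6-1* library of the same number and no result comes from a test. The limits are those of thresholds. With a score of at least 5 there were 7068 common lost sites and 6248 genes, and with at least 10 there were 824 and 804. At a score of at least 5, 28.4% of wild-type sites were lost, and the shares at the 5′ end, gene body, 3′ end and between genes were 63.3%, 23.0%, 8.06% and 5.63%, with 2.42% in pericentromeric bins, a median GC content of 47.8% and a median list share of 20.8%. A single replicate in place of both, in the wild-type lists too, gave 19433 to 23719 sites, 13760 to 15900 genes, 58.6% to 68.5% of wild-type sites lost, 49.8% to 51.5% at 5′ ends, 29.1% to 30.2% in gene bodies, 10.7% at 3′ ends, 8.79% to 9.25% between genes, 2.81% to 2.82% in pericentromeric bins, a GC content of 44.8% and a median list share of 53.5% to 67.7%. A 5′ window of 300 bp gave 24.5%, 64.8% and 3.18% for 5′ end, gene body and 3′ end, and one of 700 bp gave 65.2%, 12.5% and 14.7%. Gene density limits of 0.25 and 0.75 gave 0.737% and 6.64% in pericentromeric bins, a window of 50 bp to each side gave a GC content of 46.5%, and lists restricted to genes with a common wild-type site had a median share of 67.1%. Joining distances of 100 and 500 bp (13089 and 14449 sites, 10606 and 12125 genes) and another rule for overlap with genes changed counts by less than 1.5 times. Counting touching stretches of either replicate once, chosen after seeing the data, gave 14601 sites. Of 29 lists, 18 lay above the share over all genes, and 14 did so at scores of at least 5. Without replicate 1, the H2A.Z and SWR1 lists were no longer above it.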

Other observations

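Few genes that encode no protein had a common lost site, against 42.8% of protein-coding genes. The classes were not matched for length, and of protein-coding genes under 500 bp 12.2% were called. Of 3480 long non-coding RNA genes, 394 had a common lost site, but only 156 (4.48%, interval 3.82 to 5.22) had one centred outside protein-coding genes, against 321 with a common wild-type site there. Pseudogenes had a common lost site in 141 of 3917 cases (3.60%, interval 3.04 to 4.23), while those annotated as transcribed had one in 161 of 926 (17.4%, interval 15 to 20). Outside protein-coding genes, 137 and 157 of these pseudogenes had a lost site and 164 and 229 had a wild-type site. Of 326 microRNA genes 12 were called, of 287 small nucleolar RNA genes 2 and of 625 tRNA genes 1 (0.160%, interval 0.00405 to 0.888). Outside protein-coding genes, 11 microRNA genes had a lost site and 27 a wild-type site, and no tRNA gene had either.

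Common lost sites without any wild-type summit over H3 in either replicate numbered 1051. In the lost lists, 16.1% of the peaks of replicate 1 and 14.4% of those of replicate 2 held more than 1 summit, and the peak with the most held 9 and 19 summits.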
